A study of Homo sapiens with 9 samples.

Results

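Copying a genome draws on a fixed order of protein machines, and 42 genes that encode them were followed here over 9 expression arrays of K562 and HEL cells. The members came from a list of DNA replication genes, and a gene counted as measured where the platform's annotation gave it a probe set, a group of short probes on the array that together report 1 transcript, of its own. All 42 were found among the 12078 genes with such a probe set, on 69 of the 27306 probe sets of the table, and in every comparison below each of them passed the filter that asks for a log2 value of 5 or more in at least 1 array. K562 and HEL are human myeloid leukemia cell lines, established lines that the labels say were obtained from a cell bank, grown in RPMI1640 medium with fetal calf serum. Of the K562 arrays, 2 were of untreated cells, 1 of cells given 25 µM hemin, 1 of cells given 50 µM hemin, 1 of cells given 100 nM decitabine (DAC) and 1 of cells given 5 nM PMA. Of the HEL arrays, 1 was of untreated cells, 1 of cells given 20 nM DAC and 1 of cells given 5 nM PMA. Hemin, an oxidized form of heme, is used to push K562 cells towards the erythroid lineage, PMA is a phorbol ester that activates protein kinase C and is used to push both lines towards megakaryocytes, and DAC is a cytidine analog that is built into DNA during replication and traps DNA methyltransferases there. DAC was given in 3 pulses of 24 h with harvest at 144 h, PMA for 48 h, and how long hemin was given is not stated in the sources used here. The doses are those of the sample titles, and the shared protocol names other ones for hemin and DAC (50 µM alone, and 50 and 100 nM).

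Before a cell enters S phase, the origin recognition complex, CDC6 and CDT1 load the MCM2 to MCM7 ring onto DNA as an inactive helicase, a step called licensing that geminin (GMNN) later blocks. The kinase CDC7 with its activator DBF4, and the factors MCM10, CDC45 and GINS, then turn the ring into a working helicase, and polymerases, the sliding clamp PCNA, its loader RFC and the single-strand binding complex RPA copy the opened strands. FEN1 and LIG1 join the pieces of the lagging strand, and TYMS, the ribonucleotide reductase subunits RRM1 and RRM2, and TK1 supply nucleotides. Most of these genes are known to be transcribed in waves around the start of S phase in dividing cells, under E2F transcription factors that bind short GC-rich letters near the start of genes, and to be low in cells that have left the cell cycle.

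The sequence in front of the genes is described first here, but it was searched after most of the members had been seen to go down together in 1 of the arrays. RefSeq (GRCh38.p14) promoter windows were given for 37 of the 42 members, and the 250 bases before each start were searched on both strands for TTCGCGC or TTGGCGC or TTCCCGC or TTGCCGC, written below as E2F-type letters, for CCAAT, and for TTTGAA, a stretch like the cell cycle homology region of late cell cycle genes. TTGGCGC on one strand can overlap TTCGCGC on the other, and each occurrence was counted. A gene with several windows counted if any of them held a match. E2F-type letters were present in front of 21 of the 37 members (56.8%), against 21.8% of the 8219 genes measured in K562 that had a window. Over all 27305 genes with a window the share was 13.0%. CCAAT was present in front of 22 (59.5%, against 42.5% of the measured genes), and TTTGAA in front of 1, RRM1 (2.7%, against 11.9%). Of the stretches below, the first pair belongs to members with very large falls after PMA, the next to the gene with the most E2F-type matches among those shown, and the last pair to members with smaller differences after PMA (-0.61 for RFC1 and -1.48 for DBF4 on the log2 scale) that were not called. Capitals mark the searched letters on either strand, and each stretch is read along the strand of its gene.

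ORC1 (chr1:52404424-52404483, minus strand): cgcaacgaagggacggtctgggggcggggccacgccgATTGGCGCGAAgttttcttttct
PRIM1 (chr12:56752324-56752383, minus strand): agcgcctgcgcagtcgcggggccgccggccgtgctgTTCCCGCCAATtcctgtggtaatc
MCM6 (chr2:135876494-135876603, minus strand): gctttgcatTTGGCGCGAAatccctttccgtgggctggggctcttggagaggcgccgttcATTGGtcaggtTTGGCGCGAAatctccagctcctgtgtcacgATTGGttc
RFC1 (chr4:39366363-39366422, minus strand): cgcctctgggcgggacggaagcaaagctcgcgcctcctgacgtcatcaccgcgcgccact
DBF4 (chr7:87876433-87876492, plus strand): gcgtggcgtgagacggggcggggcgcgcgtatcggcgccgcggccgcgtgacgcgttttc

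In ORC1 and PRIM1 the E2F-type letters share bases with a CCAAT. The MCM6 stretch holds 4 E2F-type matches and 2 of CCAAT, and the stretches of RFC1 and DBF4 hold neither, although the searched window of RFC1 holds a CCAAT outside the stretch shown. RPA1 has E2F-type letters and CCAAT in its window, and its fitted difference after PMA was nearer to 0 than that of RFC1 or DBF4. A match is a string of letters and not a measured site.

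The levels are log2 values made by the authors with GCRMA, which estimates background from each probe's base composition and then brings the arrays to a common scale, so a difference of 1 is a change of 2-fold. Array medians lay between 6.67 and 6.78, and 65.5% to 67.3% of the probe sets of an array were at 5 or more. Where a gene had several probe sets, the one with the highest mean over the 9 arrays was used, and levels of different genes are not compared, since they come from different probes. The 2 untreated K562 arrays differed by a median of 0.26 over all probe sets. Untreated array 2 lay nearer to the 25 µM hemin array (0.21), and the DAC array nearer to untreated array 1 (0.27) than to array 2 (0.39), so each difference is also given against each untreated array where it matters. The labels do not say that the 2 untreated arrays came from separate cultures, so the p-values cover the spread between these arrays alone, and that spread may be technical. Of 11 erythroid marker genes, 9 were in the table and all 9 reached 5 in both lines. Of 9 megakaryocyte markers, 8 were in the table, of which 8 reached 5 in HEL and 5 in K562 (GP9, PF4 and SELP did not). Of 7 monocyte and granulocyte markers, only 2, LYZ and ITGAM, were in the table used here. Both reached 5 in K562, and in HEL ITGAM did not. Of 6 lymphocyte markers, 2 were in the table, CD3D and CD2, which both reached 5 in HEL, while in K562 CD2 did not.

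The members were bright and steady in untreated K562 cells. Their levels lay between 7.32 and 13.68, the median size of the difference between the 2 untreated arrays was 0.22 for members and 0.31 for all 9890 genes measured, and the difference was under 0.5 for 38 of 42. POLD1, the catalytic subunit of polymerase delta, was the 1 member that differed by over 1.5-fold between the untreated arrays (24.6% of all genes did), at 10.19 and 9.24.

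**Figure D1:**
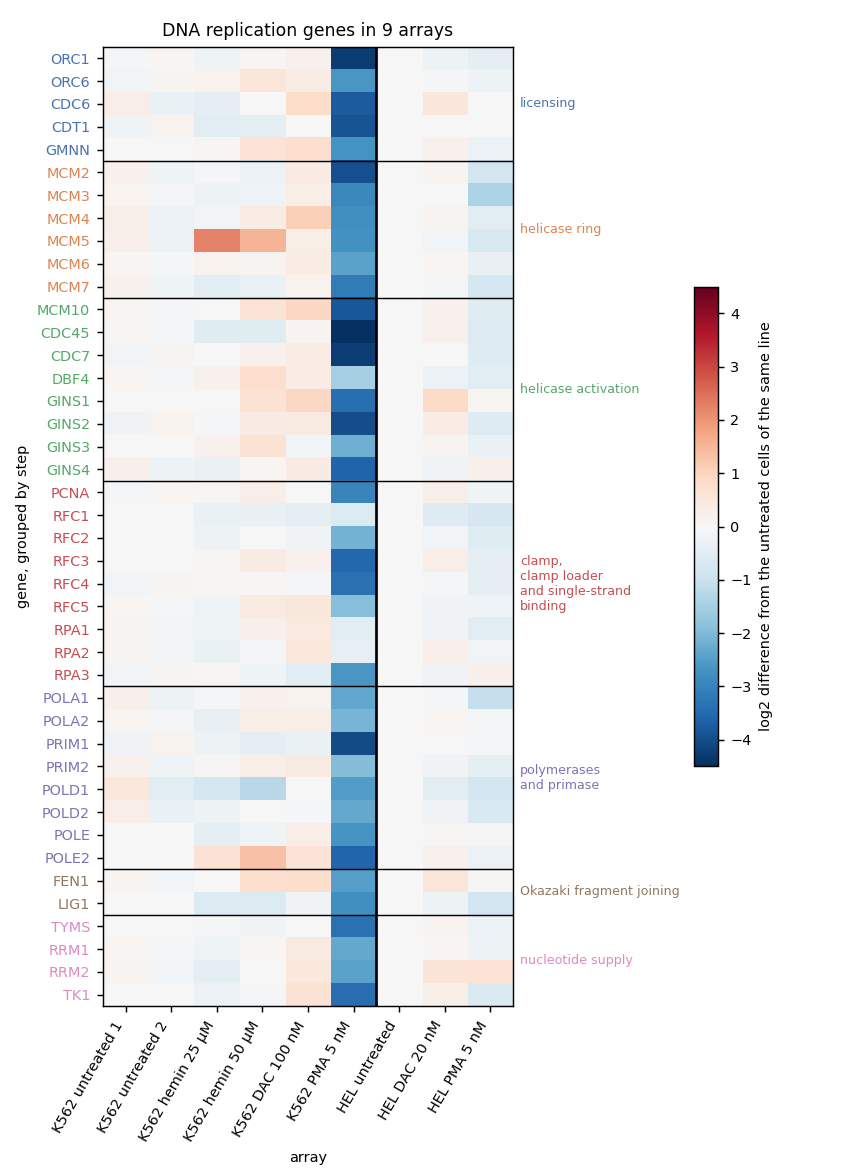
Log2 level of each of the 42 genes in each of the 9 arrays, minus the mean of the 2 untreated K562 arrays (left 6 columns) or the untreated HEL array (right 3 columns), as a colour scale with red above 0 and blue below, and with genes grouped by step. The PMA column of K562 is below 0 in all 42 rows, and the PMA column of HEL is below 0 in 35.

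After PMA, the replication genes of K562 cells fell as a block. All 42 members were lower in the PMA array than in both untreated arrays (45.8% of all 9890 genes were), 40 were over 1.5-fold lower than the untreated mean (29.9% of all genes), and none was higher. In limma, a linear model that shares information on the spread between genes, 38 of 42 passed an adjusted p of 0.05 downwards, against 8.87% of all genes downwards and 7.61% upwards. The median log2 difference was -2.73 over the members, a fall of 6.62-fold, and -0.09 over all genes. Among the 100, 200 and 500 largest falls of all genes were 7, 16 and 31 members. In bulk RNA, a lower level in each cell and fewer cells of a kind that express the gene cannot be told apart. There was 1 PMA array, whose spread the fit takes from the untreated and hemin arrays, and the calls rest on all 4 of these. Without any 1 of them, or with each hemin dose as its own group, 0 of 42 members and 0 genes in all passed the threshold (the highest adjusted p of a member called in the fit of all 6 arrays was then between 0.141 and 0.172), while the members' median stayed between -2.91 and -2.73 and 40 or 41 of them stayed over 1.5-fold lower.

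The levels of a gene are given below for the 6 K562 arrays in the order untreated 1, untreated 2, 25 µM hemin, 50 µM hemin, DAC and PMA, and for the 3 HEL arrays in the order untreated, DAC and PMA. Standard errors (SE) and adjusted p-values are those of limma for PMA against untreated in K562.

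Of the steps, licensing had the largest median fall, with all 5 genes called and a median log2 difference of -3.74. ORC1, the largest subunit of the origin recognition complex, read 9.20, 9.38, 9.09, 9.39, 9.49 and 5.01 in K562 and 9.15, 8.91 and 8.73 in HEL. Its PMA value in K562 lay below the untreated mean by a log2 difference of -4.29 (SE 0.26, adjusted p = 0.00721 by limma), a 19.5-fold fall to the edge of the detection minimum of 5, and its HEL values lay between 8.73 and 9.15. CDT1, which brings the helicase ring to the origin, read 10.98, 11.33, 10.65, 10.76, 11.17 and 7.26 in K562 and 10.75, 10.74 and 10.72 in HEL. CDC6, the ATPase that works beside it, read 9.85, 9.28, 9.11, 9.56, 10.39 and 5.83 in K562 and 8.97, 9.48 and 8.98 in HEL. For both, the PMA array of K562 stood alone (-3.90 for CDT1, SE 0.26, and -3.73 for CDC6, SE 0.38). In HEL the PMA array differed from the untreated one by -0.03 and 0.02 on the probe sets used. On the second probe set of each gene it differed by -0.66 for CDT1 and 0.37 for CDC6. GMNN, the inhibitor of CDT1, read 11.61, 11.66, 11.70, 12.25, 12.38 and 8.95 in K562 and 11.58, 11.77 and 11.32 in HEL. ORC6, the smallest subunit of the origin complex, read 9.57, 9.83, 9.85, 10.25, 10.03 and 7.09 in K562 and 9.45, 9.39 and 9.22 in HEL. These members had the smallest falls of the step, -2.69 and -2.61, so the inhibitor of CDT1 fell together with CDT1.

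The 6 genes of the helicase ring fell together in K562, by -2.39 (MCM6) to -3.95 (MCM2), and all 6 were called. MCM2 read 11.64, 11.28, 11.36, 11.20, 11.82 and 7.50 in K562 and 12.68, 12.81 and 11.86 in HEL. MCM3 read 11.89, 11.71, 11.55, 11.60, 12.10 and 8.88 in K562 and 12.36, 12.36 and 10.94 in HEL. Of the ring subunits, these were the ones with the largest fall in K562 and in HEL respectively. MCM4 read 10.80, 10.27, 10.42, 10.88, 11.60 and 7.79 in K562 and 11.54, 11.64 and 11.03 in HEL. MCM5 read 11.15, 10.67, 13.15, 12.45, 11.18 and 8.20 in K562 and 11.75, 11.63 and 11.02 in HEL. Both stood highest in a treated array of K562, MCM4 with DAC and MCM5 with 25 µM hemin, before the low PMA value. MCM6 read 11.79, 11.62, 11.85, 11.84, 12.02 and 9.31 in K562 and 11.86, 11.95 and 11.53 in HEL. MCM7 read 12.03, 11.65, 11.32, 11.53, 11.99 and 8.71 in K562 and 11.59, 11.52 and 10.79 in HEL. In HEL all 6 were also lowest in the PMA array, by -0.33 (MCM6) to -1.42 (MCM3). On the probe sets used, 4 of them (MCM2, MCM3, MCM5 and MCM7) were over 1.5-fold lower (16.8% of all genes measured in HEL). The unused probe sets of MCM4 gave -1.075, -1.222 and -0.66 there, against -0.50 on the one used.

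**Figure D2:**
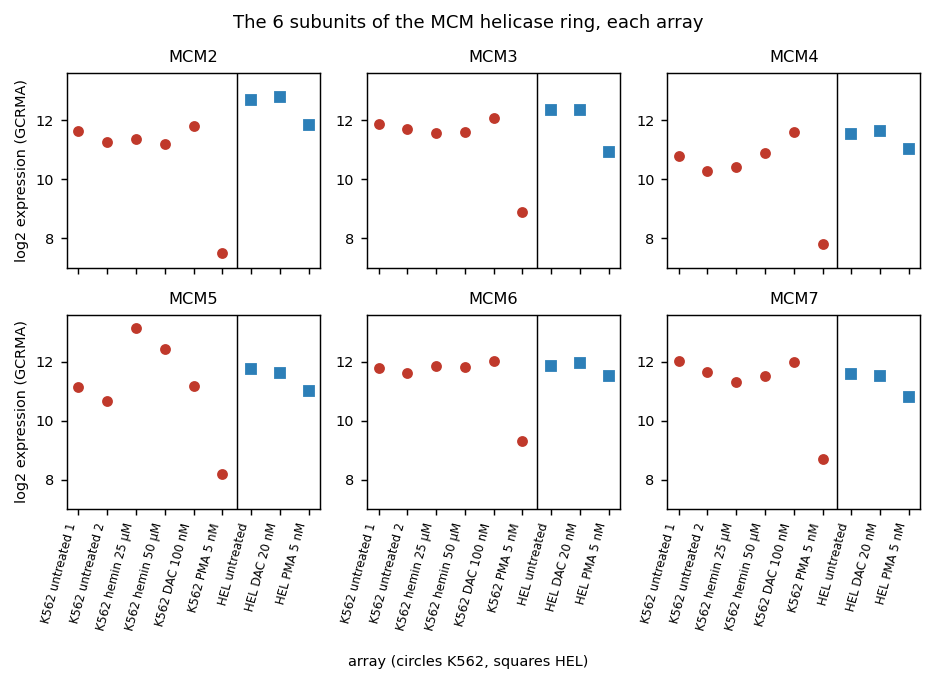
Log2 level (GCRMA) of each subunit of the MCM2 to MCM7 helicase ring in each of the 9 arrays, 1 panel a gene and 1 point an array. MCM5 reads 13.15 and 12.45 in the hemin arrays against 11.15 and 10.67 untreated, the other subunits show no such step, and all 6 are lowest in the PMA array of K562.

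The factors that activate the ring had a median fall of -3.71, close to that of licensing, with 7 of 8 called. CDC45, which binds the ring to form the working helicase, had the largest fall of all 42 members, and read 11.12, 11.03, 10.53, 10.55, 11.20 and 6.59 in K562 and 8.86, 9.06 and 8.26 in HEL. Its log2 difference was -4.48 (SE 0.21, adjusted p = 0.00673 by limma), a 22.4-fold fall. CDC7, the kinase that marks the ring for firing, read 8.57, 8.85, 8.74, 8.90, 9.04 and 4.47 in K562 and 9.26, 9.26 and 8.70 in HEL. The PMA value of CDC7 lies under the minimum of 5, and taking the minimum in its place the fall was at least 13.1-fold. DBF4, an activator of CDC7, read 11.14, 10.98, 11.27, 11.81, 11.39 and 9.58 in K562 and 10.53, 10.25 and 10.04 in HEL. The fall of DBF4 was much smaller than that of its kinase and was not called (-1.48, SE 0.32, adjusted p = 0.0556 by limma). MCM10, which helps the active helicase leave the origin, read 9.81, 9.60, 9.69, 10.33, 10.64 and 5.90 in K562 and 9.71, 9.92 and 9.17 in HEL. It was among the members that fell most, by -3.80. The GINS complex has 4 subunits that work as 1 unit, and all 4 were called. GINS1 read 10.41, 10.39, 10.38, 11.03, 11.33 and 7.01 in K562 and 10.00, 10.86 and 10.09 in HEL. GINS2 read 11.09, 11.41, 11.16, 11.61, 11.66 and 7.25 in K562 and 9.35, 9.68 and 8.77 in HEL. Their falls in K562 were -3.39 and -4.0. GINS3 read 8.31, 8.28, 8.48, 8.93, 8.16 and 6.10 in K562 and 6.89, 7.02 and 6.58 in HEL. GINS4 read 7.77, 7.32, 7.23, 7.64, 7.92 and 3.92 in K562 and 7.92, 7.76 and 8.17 in HEL. GINS3 had the smallest fall of the 4 (-2.19), and GINS4, whose PMA value lies under 5, fell at least 5.83-fold.

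The clamp, its loader and the single-strand binding complex ranged from -3.54 (RFC3) to -0.37 (RPA2), with a median of -2.12 and 6 of 9 called. PCNA, the sliding clamp that holds polymerases on DNA, read 13.03, 13.23, 13.19, 13.42, 13.16 and 10.16 in K562 and 12.62, 12.88 and 12.43 in HEL. It fell by -2.97 in K562 and was -0.19 in HEL. Among the 5 loader subunits, RFC3 read 10.67, 10.67, 10.74, 11.04, 10.86 and 7.13 in K562 and 11.02, 11.30 and 10.60 in HEL. RFC4 read 11.27, 11.54, 11.47, 11.47, 11.34 and 8.04 in K562 and 11.84, 11.75 and 11.44 in HEL. These had the largest falls of the loader, -3.54 and -3.37. RFC2 read 10.19, 10.14, 9.92, 10.19, 10.00 and 8.04 in K562 and 9.63, 9.50 and 9.07 in HEL. RFC5 read 9.92, 9.74, 9.64, 10.24, 10.33 and 7.93 in K562 and 9.96, 9.81 and 9.78 in HEL. Their falls were -2.12 and -1.91, and 1 of 3 probe sets of RFC5 was higher with PMA instead, at 10.64 against 9.86 and 9.55. RFC1, the large subunit that opens the clamp, read 9.82, 9.87, 9.53, 9.50, 9.43 and 9.23 in K562 and 10.07, 9.50 and 9.30 in HEL. It was not called (-0.61, SE 0.21, adjusted p = 0.13 by limma), and it was the 1 member of 42 that was lower by more in HEL than in K562. RPA1 and RPA2, the larger subunits of the complex that coats single strands, also for repair, are named after their values were seen, as the other members not called. RPA1 was at 11.04 and 10.80 untreated and 10.41 with PMA, and RPA2 at 10.57 and 10.31 untreated and 10.07 with PMA, differences of -0.52 (95% interval -1.34 to 0.31) and -0.37 (95% interval -1.11 to 0.37). RPA3, the smallest subunit of the same complex, read 12.16, 12.39, 12.35, 12.08, 11.80 and 9.65 in K562 and 10.61, 10.46 and 10.83 in HEL. It fell by -2.62 (SE 0.26, adjusted p = 0.0128 by limma), and the intervals of the other subunits include 0.

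All 8 genes of the polymerases and primase fell in K562 after PMA, with a median of -2.43. PRIM1, the catalytic subunit of the primase that starts each new strand with a short RNA, read 11.18, 11.48, 11.12, 10.89, 11.02 and 7.31 in K562 and 11.32, 11.30 and 11.25 in HEL. PRIM2, its partner, read 9.36, 8.95, 9.22, 9.44, 9.56 and 7.22 in K562 and 9.01, 8.87 and 8.58 in HEL. Their falls were -4.02 and -1.94, the largest and the smallest of the step, although both proteins work as a dimer. POLA1, the catalytic subunit of polymerase alpha, which extends the primer, read 8.43, 7.98, 8.10, 8.38, 8.34 and 5.85 in K562 and 8.90, 8.79 and 7.85 in HEL. POLA2, its accessory subunit, read 9.28, 9.11, 8.86, 9.45, 9.45 and 7.11 in K562 and 9.55, 9.62 and 9.48 in HEL. Both fell in K562, and POLA1 was also lower in HEL, by -1.04. POLD1, of the lagging strand polymerase, read 10.19, 9.24, 8.92, 8.46, 9.71 and 7.22 in K562 and 10.68, 10.18 and 9.81 in HEL. POLD2, its second subunit, read 11.46, 10.89, 10.96, 11.21, 11.12 and 8.88 in K562 and 10.32, 10.16 and 9.62 in HEL. POLD1 had the widest error of the members called (-2.50, SE 0.51, adjusted p = 0.0493 by limma), and its untreated arrays themselves differed by 0.95. POLE, the catalytic subunit of the leading strand polymerase, read 8.16, 8.10, 7.72, 7.95, 8.44 and 5.49 in K562 and 7.84, 7.90 and 7.90 in HEL. POLE2, its second subunit, read 8.70, 8.70, 9.36, 10.02, 9.30 and 5.14 in K562 and 8.48, 8.68 and 8.22 in HEL. POLE2 fell by more than POLE in K562 (-3.56 and -2.64), a difference that was not tested.

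FEN1 and LIG1, which trim and seal Okazaki fragments, both fell. FEN1, the flap endonuclease, read 10.89, 10.67, 10.79, 11.53, 11.56 and 8.31 in K562 and 9.80, 10.34 and 9.86 in HEL. LIG1, the replicative DNA ligase, read 8.95, 8.96, 8.33, 8.33, 8.78 and 6.19 in K562 and 9.24, 9.03 and 8.39 in HEL. The log2 differences were -2.47 (SE 0.40) and -2.77 (SE 0.21), and in HEL LIG1 was lower by -0.86 while FEN1 was 0.06. Of the nucleotide supply genes all 4 were called, with a median of -2.89. TYMS, thymidylate synthase, read 13.68, 13.65, 13.59, 13.52, 13.65 and 10.30 in K562 and 14.11, 14.23 and 13.85 in HEL. TK1, the thymidine kinase of S phase, read 9.88, 9.88, 9.63, 9.79, 10.53 and 6.46 in K562 and 10.47, 10.75 and 9.83 in HEL. Both fell by over 3 on the log2 scale in K562 (-3.37 and -3.42). RRM1, the large subunit of ribonucleotide reductase, read 12.22, 12.04, 11.94, 12.21, 12.53 and 9.83 in K562 and 11.96, 12.01 and 11.75 in HEL. RRM2, the small subunit made in S phase, read 12.48, 12.24, 11.96, 12.39, 12.85 and 9.95 in K562 and 13.00, 13.57 and 13.61 in HEL. RRM2 fell by -2.41 in K562 but was the 1 member over 1.5-fold higher in HEL after PMA, by 0.60 (14.9% of all genes measured in HEL were).

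Members with and without E2F-type letters in front of them had overlapping falls. The median log2 difference after PMA in K562 was -2.97 over the 21 members with the letters (-4.29 to -0.52) and -2.49 over the 16 without (-4.48 to -0.61). RPA1 has the letters and was not called, and CDC45, with the largest fall, has none in its windows. With CCAAT the median was -2.80, and without it -2.77. These are descriptions with no test.

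**Figure D3:**
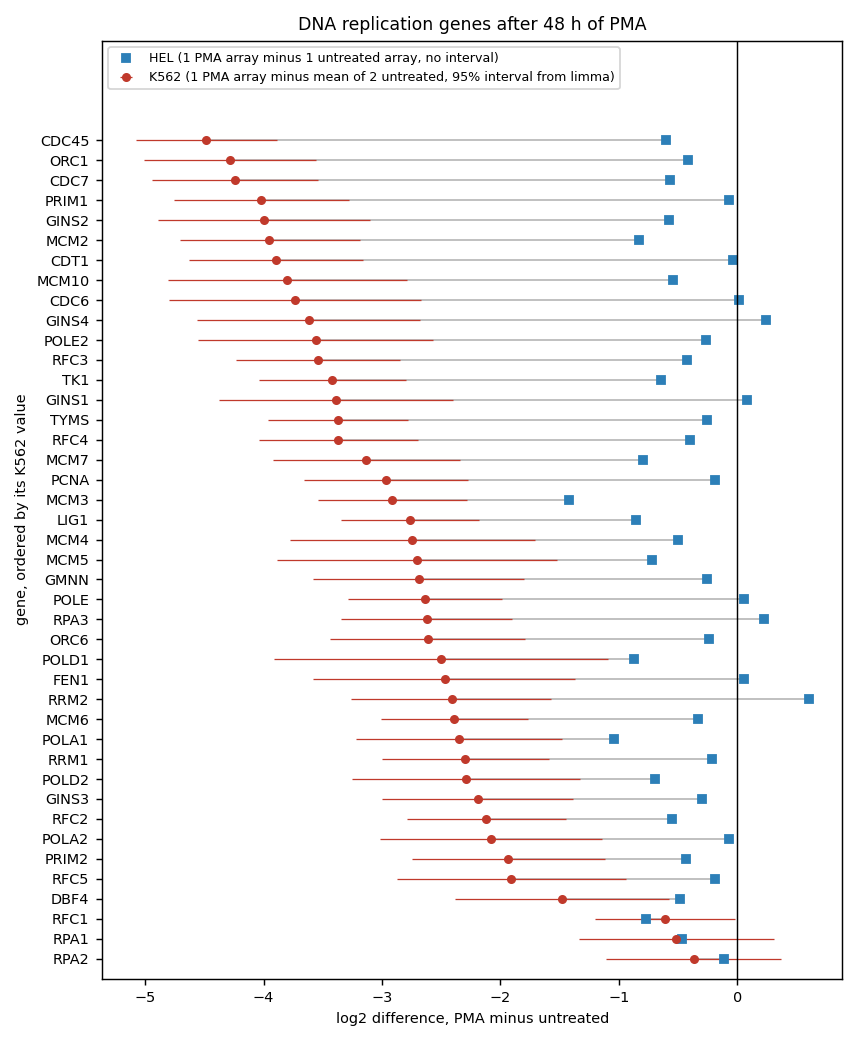
Log2 difference of the PMA array from untreated cells for each of the 42 genes, ordered by the K562 value. Red circles are K562 with the 95% interval of each gene from limma, which is not adjusted for the number of genes, and blue squares are HEL, with 1 array a condition and no interval. The HEL square lies right of the K562 circle for all genes but RFC1.

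In HEL cells the same dose and time of PMA went with much smaller differences. Over the 42 members the median log2 difference was -0.41, a fall of 1.33-fold, against -0.08 over all 9641 genes measured in HEL. Of the members, 35 were lower by any amount (55.7% of all genes), 11 by over 1.5-fold (16.8% of all genes), and 1, RRM2, was over 1.5-fold higher. The 11 were CDC45, LIG1, MCM2, MCM3, MCM5, MCM7, POLA1, POLD1, POLD2, RFC1 and TK1. On the probe sets used, the lowest values were those of MCM3 (-1.42), POLA1 (-1.04) and POLD1 (-0.87). The highest were those of RRM2, GINS4 (0.25) and RPA3 (0.23). Unused probe sets of CDT1 (-0.66), TYMS (-0.94), RFC2 (-0.66), RFC3 (-0.65) and MCM4 were also over 1.5-fold lower. Of the 65 probe sets of members that reached 5, 21 were over 1.5-fold lower and 3 over 1.5-fold higher. Licensing, with the largest median fall in K562, had a median of -0.24 in HEL, and the helicase ring, at -0.76, had the lowest median of the steps there. With 1 array a condition there is no test within HEL.

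The difference between the lines was tested over all 9 arrays, a fit chosen after the values were seen. The PMA response of HEL minus that of K562 had a median of 2.48 over the members and 0.03 over all 10560 genes, and was above 0 for 41 of 42 (51.2% of all genes). It passed an adjusted p of 0.05 in limma for 8 members, all with the smaller fall in HEL, namely CDC45, ORC1, CDC7, PRIM1, CDT1, TYMS, TK1 and LIG1 (1.20% of all genes passed in that direction and 1.46% in the other). At an unadjusted p of 0.05, 34 of 42 passed, against 21.1% of all genes in either direction. The count of 8 is 0 without any 1 of the untreated or hemin arrays of K562, and 2 with a minimum of 6 in place of 5. In the fit over both lines with the cell line as a block, where a response that differs between lines counts as spread, 0 of 42 members passed the threshold in either direction (0.0381% of 10505 genes passed downwards and 0.276% upwards), 24 had an unadjusted p under 0.05 in limma (22.8% of all genes), and the median was -1.75. The megakaryocyte markers that passed the filter were higher after PMA, with a median of 3.61 over 5 in K562 and 1.55 over 8 in HEL. A marker could pass through the PMA array, so these medians lean towards a rise. PPBP read 3.57 untreated and 8.12 with PMA in HEL, and GP9, PF4 and SELP, under 5 in every K562 array, are left out there. The part of these markers in the fall of the replication genes was not tested.

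In untreated cells, about as many replication genes were higher in HEL than in K562 as were lower. Of the 42 members, 20 were above both untreated K562 arrays in the untreated HEL array and 19 below both (37.1% and 46.7% of 10505 genes), and the median difference was -0.00135. CDC45 was lower in HEL, at 8.86 against 11.12 and 11.03, and so was GINS2, at 9.35 against 11.09 and 11.41. RPA3 and GINS3 were lower as well, by -1.66 and -1.41. MCM2 was higher in HEL, at 12.68 against 11.64 and 11.28. The limma fit over untreated, DAC and PMA arrays gave a median of 0.64 (HEL minus K562), with 22 members over 1.5-fold higher (25.9% of all genes) and 4 lower (30.6%), and no member passed an adjusted p of 0.05 (16.4% of all genes passed upwards and 19.7% downwards), while 5 had an unadjusted p under 0.05 (47.2% of all genes). That fit averages over the PMA arrays, in which most members were far lower in K562, and its value was above that of the untreated arrays for 40 of the 42. Its largest value was that of MCM2 (2.09, SE 0.66, adjusted p = 0.0566 by limma), followed by RRM2 (1.57) and CDC7 (1.56), and its lowest were those of CDC45 (-1.02), GINS2 (-0.90) and GINS3 (-0.76).

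Hemin left the replication genes of K562 cells near their untreated levels as a group, with single members apart. The median over the 42 members was -0.04 in the mean of both doses (-0.01 over all genes), -0.15 at 25 µM and 0.09 at 50 µM. No member and no gene passed an adjusted p of 0.05 in limma, while at an unadjusted p of 0.05 there were 4 members (CDC45, LIG1, MCM5 and POLE2) and 1010 of 9890 genes (10.2%). Over 1.5-fold higher than untreated were MCM5 and POLE2 (9.32% of all genes), and over 1.5-fold lower were LIG1 and POLD1 (14.4%). For 8 members each hemin value was higher than either untreated value and for 11 it was lower than either, and 22.8% of all genes were found on each side, while for 23 the values overlapped or lay between (54.4% of all genes). For the other 38 members the fitted difference lay within 1.5-fold of 0 in either direction. Their 95% intervals were wide, from -0.65 to 0.54 for ORC1, for example, so values that miss the threshold are not shown to be unchanged. The comparisons of hemin, DAC and PMA share the untreated arrays.

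MCM5 stood out among the members with hemin. Untreated cells gave 11.15 and 10.67, the 25 µM array 13.15 and the 50 µM array 12.45, so hemin and untreated values did not overlap, and the lower dose had the higher value. The log2 difference was 1.89 (SE 0.35, 95% interval 0.92 to 2.86, adjusted p = 0.474 by limma), or 3.71-fold, and ranked 57 from the highest of 9890 genes. Against each untreated array alone it was 1.65 and 2.13. A second probe set of MCM5 read 9.24 and 8.69 untreated, 11.29 at 25 µM and 10.36 at 50 µM, a difference of 1.87. The other 5 subunits of the ring lay between -0.41 (MCM7) and 0.14 (MCM6) in the same arrays, although all 6 are built into 1 ring.

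POLE2 was the other member over 1.5-fold higher at both doses, at 8.70 in each untreated array, 9.36 at 25 µM and 10.02 at 50 µM (0.99, SE 0.29, adjusted p = 0.485 by limma), and here the higher dose had the higher value. POLD1 was lower at both doses, at 8.92 and 8.46 against 10.19 and 9.24, a difference of -1.02 that is -1.50 against untreated array 1 and -0.55 against array 2. LIG1 read 8.33 at both doses against 8.95 and 8.96 (-0.62, SE 0.17). CDC45 read 10.53 and 10.55 against 11.12 and 11.03 (-0.54, SE 0.17). CDT1 was lower by -0.45 on the probe set used and by -1.63 on its second probe set, which read 10.33 and 9.19 untreated and 8.31 and 7.95 with hemin.

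More members were over 1.5-fold higher at 50 µM than at 25 µM, and so were more of all genes. The 8 members above that size at 50 µM were DBF4, FEN1, GINS1, GINS3, GMNN, MCM10, MCM5 and POLE2 (19.0% of the members, 15.3% of all genes). At 25 µM there were 2, MCM5 and POLE2 (4.76% of the members, 7.86% of all genes). The set depends in part on the probe set used. The other probe sets of MCM10 gave 0.23 and 0.38 at 50 µM, while unused ones of MCM4 (0.65 and 0.64) and RFC5 (0.68) passed that size. POLD1 and LIG1 were the 2 lower members at each dose (21.0% of all genes at 50 µM and 9.83% at 25 µM). DBF4 read 11.27 at 25 µM and 11.81 at 50 µM, FEN1 10.79 and 11.53, and MCM10 9.69 and 10.33. Of the 8 activation factors, 4 were over 1.5-fold higher at 50 µM and none at 25 µM, on the probe sets used. With 1 array a dose the difference between doses was not tested.

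**Figure D4:**
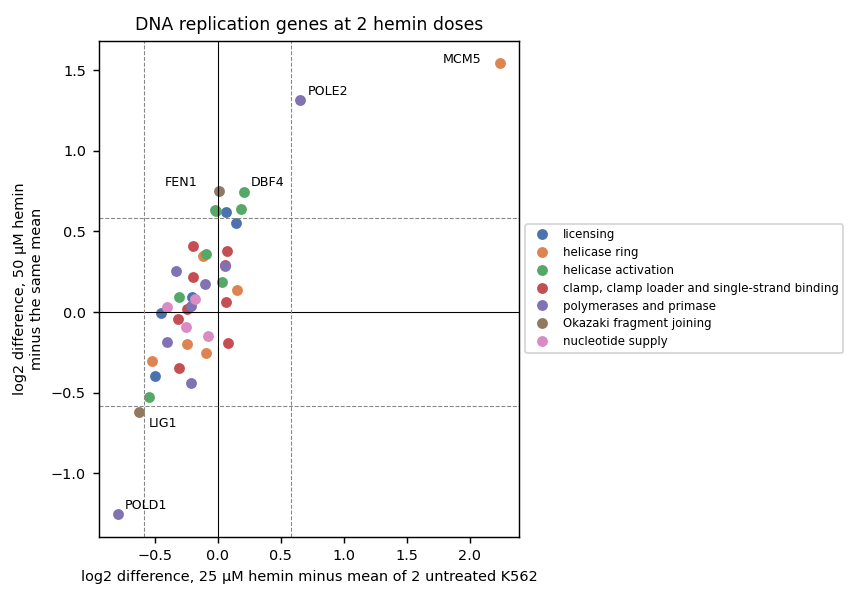
Log2 difference from the untreated K562 mean (2 arrays) at 25 µM hemin (horizontal axis) and 50 µM hemin (vertical axis), 1 point a gene, coloured by step, with dashed lines at 1.5-fold. MCM5 lies at 2.24 and 1.54, POLE2 at 0.66 and 1.32, and POLD1 at -0.79 and -1.25.

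DAC left the replication genes of K562 cells at or somewhat above their untreated levels. The median log2 difference was 0.31 (-0.02 over all genes), 28 members lay above both untreated arrays and 7 below both (36.2% and 37.8% of all genes), 8 were over 1.5-fold higher (14.9% of all genes) and none was over 1.5-fold lower (17.8%). None of the 42 passed an adjusted p of 0.05 in limma (0.0607% of all genes passed upwards and 0% downwards), and MCM4 and TK1 had an unadjusted p under 0.05 (10.7% of all genes). The 8 were MCM4, MCM10, GINS1, CDC6, FEN1, GMNN, TK1 and POLE2. MCM4 had the largest value, at 11.60 against 10.80 and 10.27 (1.07, SE 0.37, 95% interval 0.03 to 2.10, adjusted p = 0.457 by limma). MCM10 and GINS1 followed, with 0.94 and 0.93. The lowest values were those of RPA3 (-0.47), RFC1 (-0.42) and PRIM1 (-0.31). The count over 1.5-fold higher was 7 against untreated array 1 and 12 against array 2, and the median 0.20 and 0.38.

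In HEL, 20 nM DAC went with a median of 0.03 over the members (0.00 over all genes). On the probe sets used, GINS1, at 10.86 against 10.00, was the 1 member over 1.5-fold higher (4.27% of all genes). None was over 1.5-fold lower (6.05%), and 20 of 42 were lower by any amount (49.5%). After GINS1, RRM2 and FEN1 had the largest values, 0.57 and 0.54, and RFC1, POLD1 and DBF4 the lowest, -0.58, -0.50 and -0.28. Unused probe sets of CDC6 (1.09), RFC5 (0.91) and FEN1 (0.62) were over 1.5-fold higher as well. In K562 these gave 0.98, 0.68 and 0.73 with DAC. The DAC doses differ between the lines, so their values stand side by side only. GINS1 was over 1.5-fold higher in each line, and in the fit over both lines it was the 1 member of that size (7.68% of all genes were higher by as much) (0.72, SE 0.84, adjusted p = 0.945 by limma). In that fit 0 of 42 members and 0 of 10505 genes passed an adjusted p of 0.05 in limma, and at an unadjusted p of 0.05 there were 0 members and 435 genes (4.14%).

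**Figure D5:**
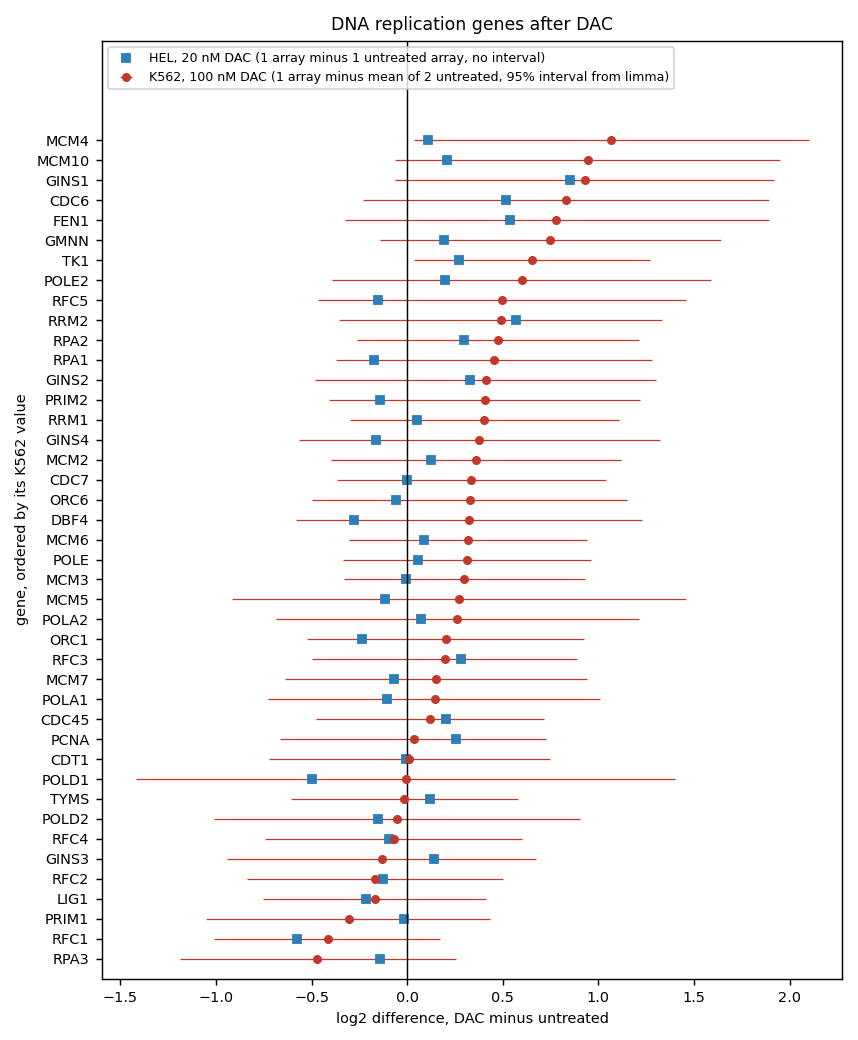
Log2 difference of the DAC array from untreated cells for each of the 42 genes, ordered by the K562 value. Red circles are K562 at 100 nM with the 95% interval of each gene from limma, which is not adjusted for the number of genes, and blue squares are HEL at 20 nM, with 1 array a condition and no interval. GINS1 lies at 0.93 in K562 and 0.85 in HEL.

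Other genes of the pathway, taken from lists of their own, fell with PMA in K562 as well. As for the members, the calls (8.87% of all genes downwards) are lost without any 1 untreated or hemin array or with the hemin doses apart. Of 26 other replication factors, 16 passed the threshold downwards and 0 upwards, with a median of -2.14. In HEL their median was -0.33, with 6 over 1.5-fold lower (16.8% of all genes) and 2 over 1.5-fold higher (14.9%). The genes named next were those with the smallest p over both lines. RNASEH2B, a subunit of the enzyme that removes RNA from DNA, read 6.66 and 7.26 untreated and 3.16, under the minimum of 5, with PMA in K562, and 7.82 untreated and 6.66 with PMA in HEL. ATAD5, which unloads PCNA, and the origin complex subunits ORC3 and ORC5 differed by -2.34, -1.50 and -1.41 in K562, where ORC5 was not called, and by -0.70, -0.78 and -0.72 in HEL. Of 8 genes of chromatin assembly and maintenance methylation at the fork, 6 passed the threshold downwards and 0 upwards, with a median of -2.17. All 8 were over 1.5-fold lower (29.9% of all genes). The histone chaperones NASP and CHAF1A fell by -2.23 and -2.12, and the maintenance methyltransferase DNMT1 by -1.66, while ASF1A was at -0.65 and not called. Of 12 other nucleotide supply genes, 10 were measured, of which 5 passed the threshold downwards and 0 upwards, with a median of -1.81. Of the 10, 7 were over 1.5-fold lower and 1, TK2, was over 1.5-fold higher (1.8) without being called. DUT, which removes dUTP, and GART, of purine synthesis, fell by -2.06 and -1.61, and DCK, the deoxycytidine kinase that also activates DAC, and DCTPP1 had values of -2.15 and -1.56 and were not called.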

How the data were processed

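Total RNA was measured on Affymetrix arrays, 6 of K562 and 3 of HEL cells. The authors deposited log2 expression values per probe set, and per the labels they used GCRMA (version not given), with quantile scaling that removes a shift shared by most genes. The sources used here do not say how the 27306 probe sets were selected. Values were used as deposited, with no further scaling.

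The platform annotation named 1 gene for 22858 probe sets, several for 1164 and none for 3284, and of the first 22844 matched a gene ID of the RefSeq table, with 0 symbols changed. A probe set entered a fit if it named 1 gene and reached 5 on the log2 scale in at least 1 of its arrays, and where a gene had several the one with the highest mean over 9 arrays stood for it. Groups were compared in limma 3.58.1 (R 4.3.3, lmFit and eBayes, Benjamini-Hochberg over all genes tested, threshold 0.05) over 6 K562 arrays (9890 genes) or over 7 arrays without hemin with the cell line as a block (10505 genes). The difference between lines (9 arrays, 10560 genes) was chosen after the values were seen. The scripts were tested on simulated data. Members, lists and promoter letters were chosen with earlier results of these data known.

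Every member is accounted for, and levels in all arrays are given for members past the threshold, for the 3 largest rises and falls of a comparison, and for MCM2 to MCM7, and of each other list up to 4 genes with the smallest p for PMA over both lines. Alternatives were quantile normalization, centring, other dim filters, the mean of probe sets, an intensity trend, other groupings and leaving out arrays. The number of arrays limits the precision.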

Additional observations from a re-analysis of the deposited data

Results flagged for a closer look

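For 8 replication genes the PMA response differed between the lines by limma over all 9 arrays, a test of the difference itself in a fit chosen after the values were seen. Without any 1 untreated or hemin array of K562, 0 of the 8 were called, and with a minimum of 6 in place of 5 there were 2. The response of HEL minus that of K562, on the log2 scale, was 3.95 for PRIM1 (adjusted p = 0.0487 by limma), 3.88 for CDC45 (adjusted p = 0.0341 by limma), 3.87 for ORC1, 3.86 for CDT1, 3.68 for CDC7, 3.12 for TYMS, 2.77 for TK1 and 1.91 for LIG1. In each the level fell in K562 and was lower by less in HEL. CDC45, whose untreated level was 11.12 and 11.03 in K562 and 8.86 in HEL, ended at 6.59 and 8.26. PRIM1, at 11.18 and 11.48 in untreated K562 and 11.32 in untreated HEL, ended at 7.31 and 11.25. The value of CDC7 rests on a PMA level under 5 in K562. HEL has 1 array a condition, so the spread of the test comes from K562 alone. PMA was given at 5 nM for 48 h to both lines, and the line cannot be told apart from the array that carries it.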

How the results depend on the processing

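The fall in K562 after PMA kept its direction in the 38 called members under the alternatives run. Over 1.5-fold lower were 39 to 41 of the 42 members, and the median over all 42 stayed between -2.91 and -2.64. With no filter on dim probe sets 31 members were called, and 37 to 39 under the other scalings, filters, probe set means and an intensity trend. With each hemin dose as its own group the counts of genes (877 lower, 753 higher) and members (38) were 0, and leaving out an array gave 0 to 0 for each, as for the 6 genes higher with DAC. Those K562 fits have 1 residual degree of freedom, through an added group or through fewer arrays. The 6 became 26 (centred on the median), 0 (hemin doses apart), 25 (intensity trend), 17 (mean of probe sets), 16 (minimum of 6), 11 (no filter) and 24 (quantile normalization), and 0 lower became 2 (centred) and 2 (quantile). In the fit over both lines, 29 higher and 4 lower with PMA became 158 and 50 (all 9 arrays), 1 and 0 (no cell line block), 14 and 1 (no filter) and 48 and 7 (quantile), 44 higher with a minimum of 6, and 0 to 0 without an untreated array. For the PMA difference between lines, 127 higher, 154 lower and 8 members became 287, 357 and 13 (intensity trend), 64, 92 and 2 (minimum of 6) and 291, 405 and 13 (no filter), and 0 to 0 when an array was left out. For DAC, 0 and 0 became 58 and 143 (intensity trend). HEL against K562 gave 1721 higher and 2069 lower genes, and 1126 to 1337 and 1241 to 1514 when an array was left out, the lowest without untreated array 1. Its members higher went from 0 to 2 (all 9 arrays) and 1 (intensity trend). With DAC in HEL, members over 1.5-fold higher went from 1 to 2 (mean of probe sets) and lower from 0 to 1 (quantile). GINS4 after PMA in HEL went from 0.25 to -0.012 with the mean of probe sets. The cause of these changes was not tested. No paired analysis was possible because the labels give no replicate numbers.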

Other observations

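Genes on either side of S phase were taken from lists of their own. Of 12 mitosis genes, 11 passed the threshold downwards in K562 after PMA and 0 upwards (8.87% of all genes passed downwards). The median was -3.36 in K562 and -0.29 in HEL. KIF11, a spindle motor, read 9.93 and 9.78 untreated and 5.29 with PMA in K562, and 10.17 and 9.70 in HEL. PLK1, TPX2 and BUB1, which run the spindle and its checkpoint, fell by -4.0, -2.49 and -3.07. AURKA, at -1.36, was the 1 member not called, and is named after its value was seen.

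Of 24 genes of G1/S control, 23 were measured, 8 fell and 2 rose in K562 (8.87% and 7.61% of all genes), where fell and rose mean an adjusted p under 0.05, with a median of -0.62. Of the 23, 12 were over 1.5-fold lower and 3 over 1.5-fold higher. Of all 9890 genes, 2962 were over 1.5-fold lower and 2567 over 1.5-fold higher. CDKN1A, the inhibitor p21 of cyclin-dependent kinases, read 7.16 and 7.55 untreated and 11.87 with PMA in K562, and 3.92 untreated and 10.10 with PMA in HEL, where the untreated value is under the minimum of 5 and the difference is at least 34.3-fold. In K562 it rose by 4.52 (SE 0.29, adjusted p = 0.00732 by limma). CCND1, cyclin D1, read 8.78 and 8.14 untreated and 11.52 with PMA in K562, and 3.28 and 7.33 in HEL, at least 5.03-fold there. CDKN1B, another inhibitor of these kinases, and E2F5 were lower in both lines, by -1.60 and -2.30 in K562, where CDKN1B was not called (adjusted p = 0.0504 by limma), and by -1.38 and -1.73 in HEL. The K562 calls are lost without any 1 untreated or hemin array, as for the replication genes.

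Of the 65 probe sets of members that reached 5, 60 were over 1.5-fold lower in K562 after PMA and 1 was over 1.5-fold higher, the third probe set of RFC5. It differed by 0.94 in K562 and 1.39 in HEL, against -1.91 and -2.14 in K562 on the other probe sets of the gene. In RefSeq GRCh38.p14, RFC5 (chr12:118016703-118041448) overlaps WSB2 (chr12:118032687-118062174), whose own probe set differed by 1.06 in K562 and 1.03 in HEL. Which transcript the third probe set reads was not tested.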
